A study of Mus musculus with 32 samples.

Results

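The genes for 4 steroid hormone receptors (Nr3c1, Nr3c2, Esr1 and Pgr), the steroid-converting enzyme gene Hsd11b1 and 4 genes that answer to glucocorticoids (Fkbp5, Tsc22d3, Sgk1 and Cdkn1a) were followed across the cell types of the mouse median eminence (ME), the part of the basal hypothalamus where hypothalamic hormones reach the pituitary portal blood. These 9 genes were taken by symbol from the 27998 genes of a single-cell unique molecular identifier (UMI) matrix, and all 9 had UMIs. The cells came from C57B/L6 mice aged 40 to 47 days, 5 of which were fasted overnight (16 h) and 5 of which were fasted in the same way and then refed normal chow for 1 h. The authors' methods give male mice for all studies except where noted, and note no other sex for these cells. Tissue was pooled within each condition, dissociated with papain and sorted as live nucleated cells, and the cells of each pool were divided over 2 droplet libraries made with 10x Genomics 3′ chemistry. There was no group that had not been fasted, and the cells carry no mark of the mouse they came from.

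All libraries were deposited as 1 matrix of 5982 cells, in which each cell barcode carries a number, 1 to 4, with no source tying it to a library or a condition. Fasted and refed cells were therefore described together as 1 sample, no test between groups was possible, and values are given for each barcode number as a measure of spread. Such a spread can hold differences between libraries and between conditions. The cells held 29288898 UMIs, from 6508038 to 7806887 per barcode number, with a median of 3837 UMIs per cell. Of 5961 barcode sequences, 21 occurred under more than 1 number. Clustering gave 27 clusters, of which 23 were named from marker lists as 13 cell types with 5415 cells. A level is given in counts per 1000000 (CPM), a gene's UMIs summed over the cells of a type or cluster and divided by all UMIs of those cells. Intervals are exact Poisson (CPM) or Clopper-Pearson (shares of cells) at the 95% level, and both cover counting error only.

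Corticosterone, the main glucocorticoid of mice, enters cells and binds the glucocorticoid receptor or, with higher affinity, the mineralocorticoid receptor. The bound receptor leaves its chaperone complex, moves to the nucleus and acts on genes such as those followed here, while estrogen and progesterone act through their own members of the same receptor family. In the hypothalamus these receptors take part in feedback on the stress and reproductive axes, and within a cell the enzyme encoded by Hsd11b1 can regenerate active corticosterone from its inert form.

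The 9 genes had different distributions over the 13 cell types. Nr3c1 was above 50 CPM in 12 of them, whereas Hsd11b1 was above 10 CPM in 2, Nr3c2 in 2 and Esr1 and Pgr in 1 each. Among the response genes, Sgk1 was highest in the oligodendrocyte lineage, Tsc22d3 and Fkbp5 in vascular and leptomeningeal cell (VLMC)-like cells and Cdkn1a in endothelial-like cells. The level in the highest type was at least 2-fold that of the next type for Esr1 and Cdkn1a, with 10 CPM added to both, against 17.5% of all 13933 genes with at least 50 UMIs.

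**Figure D1:**
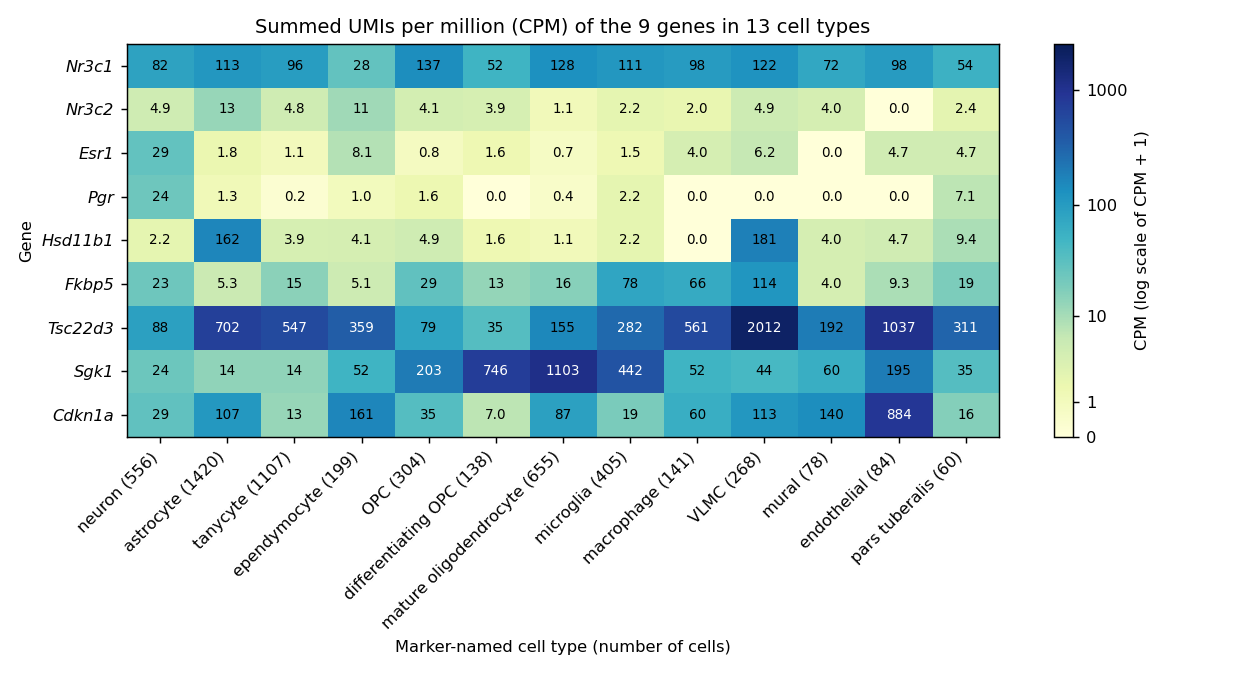
Level (CPM, printed in each cell and coloured on a log scale) of the 9 genes (rows) in the 13 marker-named cell types (columns, with their number of cells). Nr3c1 is present in every column, while Esr1 and Pgr are highest in neuron-like cells and Hsd11b1 in the astrocyte-like and VLMC-like columns.

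Nr3c1, which encodes the glucocorticoid receptor, was found in all 13 types. Its level was highest in oligodendrocyte precursor cell (OPC)-like cells at 137 CPM (interval 117 to 159), with 136, 142, 129 and 138 CPM in barcode numbers 1 to 4. Mature oligodendrocyte (MOL)-like cells followed at 128 CPM, VLMC-like cells at 122 CPM and astrocyte-like cells at 113 CPM. The lowest level was 28.4 CPM (18.8 to 41.0) in ependymocyte-like cells, the ciliated lining of the ventricle, where the 4 barcode numbers gave 53.1, 23.3, 25.7 and 17.9 CPM. The highest type was thus 4.82-fold above the lowest, and the values of the 2 types did not overlap between barcode numbers. In the order of the 13 types, however, none of the 12 pairs of neighbours had ranges over barcode numbers that stood apart.

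Along the oligodendrocyte lineage the order of Nr3c1 did not follow maturation. Differentiating OPC (diffOPC)-like cells had 51.5 CPM (39.9 to 65.6), below both OPC-like and MOL-like cells, and their 4 values (42.8, 56.4, 48.9 and 61.0 CPM) were all under the lowest OPC-like and MOL-like values. The share of cells with an Nr3c1 UMI was 42.8% of 304 OPC-like cells, 37.7% of 138 diffOPC-like cells and 56.5% of 655 MOL-like cells at median depths of 4022, 9036 and 6133 UMIs. After every cell was thinned to 2000 UMIs, the shares were 23.2%, 10.1% and 22.02%. The lower level in diffOPC-like cells was therefore also present at equal depth.

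Nr3c2, which encodes the mineralocorticoid receptor, was rare, with 155 UMIs in all cells. Astrocyte-like cells had 50 of these UMIs (12.7 CPM, 9.45 to 16.8) and ependymocyte-like cells had 11.1 CPM (5.56 to 19.9). Values in astrocyte-like cells were 7.29, 18.7, 11.3 and 13.5 CPM over the barcode numbers and overlapped those of ependymocyte-like cells, which were 9.65, 5.82, 7.34 and 17.9 CPM. The other 11 types were at or below 4.92 CPM, and 0 of 84 endothelial-like cells had an Nr3c2 UMI, which allows a share of cells with a UMI of up to 3.57% at a median depth of 2246 UMIs. Neuron-like cells had 33 UMIs (4.87 CPM), although 5.58% of these deeper cells had a UMI against 3.52% of astrocyte-like cells. At 2000 UMIs per cell these shares were 0.364% and 2.58%.

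Esr1 and Pgr, which encode estrogen receptor alpha and the progesterone receptor, were largely found in neuron-like cells. These 556 cells held 81.9% of the 237 Esr1 UMIs and 88.9% of the 180 Pgr UMIs. Esr1 was at 28.6 CPM (24.7 to 32.9), with 32.5, 37.9, 19.8 and 30.3 CPM over the barcode numbers, and the next type, ependymocyte-like cells, had 8.10 CPM. Pgr was at 23.6 CPM (20.1 to 27.5), with 19.5, 18.0, 24.8 and 27.9 CPM. For both genes the lowest neuron-like value lay above the highest value of the next type, which for Pgr was pars tuberalis-like cells with only 3 UMIs. An Esr1 UMI was found in 20.1% of neuron-like cells but in 0.458% of MOL-like cells, a type taken as background for this gene, at median depths of 12822 and 6133 UMIs. The same shares for Pgr were 20.9% and 0.305%. At 2000 UMIs per cell the Esr1 shares were 4.92% and 0.153%, and those of Pgr were 3.28% and 0.153%. Gper1, which encodes a membrane estrogen receptor, was instead at 380 CPM in mural-like cells and 51.2 CPM in endothelial-like cells. Only 1 UMI of Esr2, the estrogen receptor beta gene, was found in neuron-like cells.

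Within the neuron-like cells the receptors were divided between clusters. A cluster of 54 cells was led by Tac2, which encodes the tachykinin neurokinin B, and also had Gm28040, Prlr and Pdyn among its leading genes. This cluster held 94.4% of all Gm28040 UMIs. It had 137 CPM of Esr1 (111 to 167), with 127, 149, 135 and 144 CPM over the barcode numbers. Of its cells, 83.3% had an Esr1 UMI. The cluster led by Gal and Ghrh (277 cells) had 22.99 CPM of Esr1 and the cluster led by Sst (74 cells) had 20.4 CPM. The Gal-led cluster was mixed, with a Gal UMI in 29.2% and a Ghrh UMI in 14.8% of its cells. In the cluster led by Npy and Agrp, the hunger-promoting neurons of the arcuate nucleus (61 cells), 1 Esr1 UMI was found (0.937 CPM). In the cluster led by Vip and Rgs16, 0 of the 90 cells had an Esr1 UMI. This allows a share of cells with a UMI of up to 3.33% at a median depth of 6882 UMIs, the lowest of the 5 clusters. Avp was also among the leading genes of this cluster, with a UMI in 62 of its cells against 19 for Vip. The name Vip-led thus marks a leading gene and not a group of Vip cells.

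Nr3c1 was ordered differently over the same clusters. It was at 138 CPM (116 to 162) in the Npy-led and Agrp-led cluster, with 148, 123, 126 and 156 CPM over the barcode numbers, at 111 CPM in the Sst-led cluster and at 84.0 CPM in the Gal-led cluster. The Tac2-led cluster had 10.1 CPM (4.05 to 20.8) and the Vip-led cluster 7.95 CPM (2.58 to 18.5). Their highest values over barcode numbers, 23.7 and 14.0 CPM, lay below the lowest value of each of the other 3 clusters. Thus the cluster with the highest Esr1 level had an Nr3c1 UMI in 9.26% of its cells, and the Npy-led cluster had one in 86.9%. At 2000 UMIs per cell these shares were 3.70% and 24.6%.

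Pgr was shared more evenly, at 36.0 CPM (23.3 to 53.2) in the Tac2-led cluster and 33.4 CPM (27.4 to 40.3) in the Gal-led cluster, whose intervals overlapped. The Npy-led cluster had 12.2 CPM, the Sst-led cluster 7.98 CPM and the Vip-led cluster 6.36 CPM. Among all neuron-like cells, 42.9% of the 112 cells with an Esr1 UMI also had a Pgr UMI, against 15.3% of the cells without, at median depths of 14562 and 11872 UMIs. In the Gal-led cluster the shares were 58.7% and 19.5% and in the Tac2-led cluster 37.8% and 22.2%. The clusters come from cells of the same libraries and were not compared by a test.

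**Figure D2:**
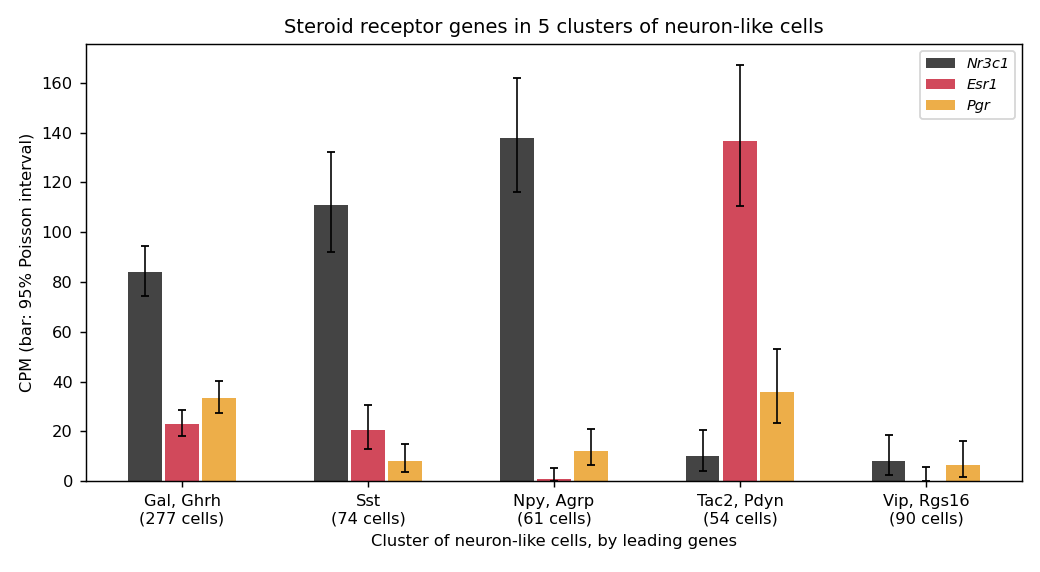
Level (CPM, with exact Poisson intervals at the 95% level) of Nr3c1, Esr1 and Pgr in the 5 clusters of neuron-like cells, named by leading genes. Esr1 (137 CPM) is highest in the cluster led by Tac2, where Nr3c1 is at 10.1 CPM.

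Neuron-like cells were also grouped by peptide genes, although these groups largely hold the cells of the clusters (the Tac2-led cluster had 93.5% of all Tac2 UMIs and the Npy-led cluster 86.2% of all Agrp UMIs). Of the 54 cells with at least 3 Tac2 UMIs, 81.5% had an Esr1 UMI and 9.26% an Nr3c1 UMI, and of the 79 cells with at least 3 Agrp UMIs these shares were 7.59% and 86.1%. Cells with at least 3 UMIs of Ghrh, the growth hormone-releasing hormone gene, had an Esr1 UMI in 14 and an Nr3c1 UMI in 18 of 25 cells. Of 20 cells with at least 3 UMIs of Pomc, the melanocortin precursor gene, 10 had an Esr1 UMI and 12 an Nr3c1 UMI. One cell can belong to several of these groups. No gene of the matrix was matched to the symbol Kiss1, so no group was formed by it and Kiss1 in the Tac2-led cluster could not be examined.

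Hsd11b1 encodes 11β-hydroxysteroid dehydrogenase type 1, the enzyme that regenerates active glucocorticoid. Its UMIs were almost confined to 2 types, as astrocyte-like cells held 74.5% of the 854 UMIs and VLMC-like cells 17.2%. The level was 181 CPM (153 to 213) in VLMC-like cells, with 169, 167, 192 and 196 CPM over the barcode numbers, and 162 CPM (150 to 175) in astrocyte-like cells, with 193, 166, 137 and 142 CPM. The values of these 2 types overlapped. The next type, pars tuberalis-like cells, had 9.43 CPM (4 UMIs), so that astrocyte-like cells stood 17.2-fold above it. An Hsd11b1 UMI was found in 33.9% of 1420 astrocyte-like cells and 29.1% of 268 VLMC-like cells but in 0.763% of MOL-like cells and 1.63% of 1107 tanycyte-like cells, the radial glia of the ventricle floor. Among clusters without a name, 15 cells led by the lymphocyte genes Ccl5, Nkg7 and Cd3g had 7 Hsd11b1 UMIs (156 CPM, 62.6 to 321). The gene (chromosome 1, 193221634 to 193264075, minus strand, GRCm38) overlaps Lamb3 and 4930570N18Rik on the other strand, and how the authors' counting treats strand is not given in the sources used here.

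Other genes of steroid handling had their highest levels in different types, and only 5 of the 10 listed had at least 50 UMIs. H6pd, whose enzyme supplies the reduced cofactor that Hsd11b1 needs, was at 19.7 CPM (16 UMIs) in VLMC-like cells and 1.27 CPM (5 UMIs) in astrocyte-like cells. Cyp7b1, an oxysterol and neurosteroid hydroxylase gene, had 104 CPM in the astrocyte-like type and 57.9 CPM among the VLMC-like cells. Abcb1a, an efflux pump of the blood-brain barrier, was at 809 CPM in endothelial-like cells against 0.488 CPM in the other named cells. Srd5a1, which encodes a steroid 5α-reductase, was at 65.0 CPM in MOL-like cells, and Hsd11b2, the enzyme that inactivates corticosterone, had 2 UMIs in astrocyte-like cells. Of the 5 listed genes with at least 50 UMIs, 3 (H6pd, Cyp7b1 and Tspo) were at least 2-fold higher in VLMC-like cells than in the other named cells, against 6.13% of all genes.

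The same comparison gave 3 of the 9 followed genes, Fkbp5, Tsc22d3 and Hsd11b1, at least 2-fold higher in VLMC-like cells, against 6.13% of all genes. Fkbp5 encodes a co-chaperone that lowers the affinity of the glucocorticoid receptor for its ligand and is itself induced by the receptor. VLMC-like cells had 114 CPM of Fkbp5 (92.4 to 140), with 86.9, 157, 107 and 106 CPM over the barcode numbers. Microglia-like cells had 77.8 CPM (63.7 to 94.0), with 76.0, 97.9, 98.4 and 27.3 CPM, and macrophage-like cells 65.9 CPM. The first 3 barcode numbers of microglia-like cells were thus alike and the fourth was lower than each of them, with 7 UMIs behind it. Astrocyte-like cells, with Nr3c1 at 113 CPM, had 5.35 CPM of Fkbp5 (3.31 to 8.18) and a UMI in 1.41% of cells, and ependymocyte-like cells had 5.06 CPM. An unnamed cluster of 21 cells led by Ccn3, Fxyd5 and Igfbp6 had 257 CPM of Fkbp5 (166 to 379) and 966 CPM of Tsc22d3.

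Tsc22d3 encodes GILZ, a leucine zipper protein induced by glucocorticoids that restrains inflammatory signalling. It was present in all types and spanned 57.2-fold, from 2012 CPM (1915 to 2111) in VLMC-like cells to 35.1 CPM in diffOPC-like cells. VLMC-like values were 1952, 2164, 2076 and 1832 CPM over the barcode numbers. Endothelial-like cells followed at 1037 CPM (905 to 1183), with 941, 1119, 1096 and 906 CPM, and the ranges of these 2 types did not overlap with each other or with that of the next, astrocyte-like cells at 702 CPM. Macrophage-like (561 CPM), tanycyte-like (547 CPM) and ependymocyte-like cells (359 CPM) came next, whereas MOL-like cells had 155 CPM, neuron-like cells 87.7 CPM and OPC-like cells 79.0 CPM. A UMI was found in 92.2% of VLMC-like and 75.4% of astrocyte-like cells and, at 2000 UMIs per cell, in 87.2% and 66.7%, against 5.80% of diffOPC-like cells. OPC-like and VLMC-like cells, whose Nr3c1 ranges over barcode numbers overlapped, stood far apart in Tsc22d3. Over the 13 types Pearson's r between the log2 levels of Nr3c1 and Tsc22d3 was 0.22. For Nr3c1 with Fkbp5, Sgk1 and Cdkn1a it was 0.46, 0.14 and 0.06. These 13 points share the same libraries and are given without a test.

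VLMC-like and endothelial-like cells also had high levels of genes that respond to dissociation. Of 8 such genes with at least 50 UMIs (Fos, Jun, Ier2 and others), 7 were at least 2-fold higher in VLMC-like cells and 5 in endothelial-like cells, against 6.13% and 7.99% of all genes. The summed level of this list in VLMC-like cells was 741, 1565, 5085 and 4755 CPM in barcode numbers 1 to 4. Tsc22d3 stayed between 1832 and 2164 CPM over these numbers, and astrocyte-like cells, with a summed level of 119 to 153 CPM, had Tsc22d3 at 573 to 802 CPM. The part of the dissociation genes in the Tsc22d3 level was not tested.

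The start of a Tsc22d3 transcript (chromosome X, minus strand) is shown because Tsc22d3 had the highest level of the 9 genes over all cells and in VLMC-like cells. The window holds 250 bases before the start, chrX:140600523-140600772 in RefSeq GRCm38.p6, 5′ to 3′ on the minus strand. Capitals mark a single arm TGTTCT of the element that the glucocorticoid receptor binds, at base 185 before the start.
Tsc22d3: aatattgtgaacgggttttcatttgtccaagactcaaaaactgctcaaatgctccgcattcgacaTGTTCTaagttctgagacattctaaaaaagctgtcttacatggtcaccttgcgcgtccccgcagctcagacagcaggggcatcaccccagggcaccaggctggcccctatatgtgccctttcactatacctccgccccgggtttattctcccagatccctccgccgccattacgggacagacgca
This arm, searched on both strands, occurs in 16.1% of all 32851 promoter windows of that length. It was found in 4 of the 17 windows of the followed genes that were searched, 3 of Sgk1 and this one.

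Sgk1 encodes serum and glucocorticoid regulated kinase 1, which is induced by corticosteroids and regulates ion channels and transporters. MOL-like cells held 67.9% of its 7234 UMIs and had 1103 CPM (1073 to 1135), and diffOPC-like cells had 746 CPM (700 to 795). OPC-like cells had 203 CPM (178 to 230), so that the pooled level was higher at each later stage of the lineage. Over barcode numbers, however, the range of MOL-like cells (599 to 1652 CPM) overlapped that of diffOPC-like cells (653 to 863 CPM), and both lay above that of OPC-like cells (130 to 239 CPM). Microglia-like cells, outside the lineage, had 442 CPM (407 to 478) and endothelial-like cells 195 CPM. Astrocyte-like and tanycyte-like cells were lowest, with 13.8 and 14.0 CPM, and the highest type was 80.2-fold above the lowest. An Sgk1 UMI was found in 92.2% of MOL-like cells, 92.8% of diffOPC-like cells and 152 of the 304 OPC-like cells, and in 73.7%, 65.9% and 28.8% at 2000 UMIs per cell. In astrocyte-like cells, here the background, the shares were 3.66% and 2.89%. Among the 3 clusters of MOL-like cells, Sgk1 was at 1271 CPM in the largest (555 cells, led by Ptgds and Mal), 769 CPM in the cluster led by Klk6 and Anln (59 cells) and 367 CPM in the cluster led by Mag and Ctps (41 cells).

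One Sgk1 start was the single window of the followed genes that held the full palindromic glucocorticoid response element, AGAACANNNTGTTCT, and is shown for that reason. The element was found on either strand in 3 of all 32851 windows (0.00913%), and it lies on chromosome 10 at 21993701 to 21993715, 189 bases before this start. It contains 2 matches to the single arm. The sequence is the 250 bases before the start, chr10:21993640-21993889 in RefSeq GRCm38.p6, plus strand, with the element in capitals.
Sgk1: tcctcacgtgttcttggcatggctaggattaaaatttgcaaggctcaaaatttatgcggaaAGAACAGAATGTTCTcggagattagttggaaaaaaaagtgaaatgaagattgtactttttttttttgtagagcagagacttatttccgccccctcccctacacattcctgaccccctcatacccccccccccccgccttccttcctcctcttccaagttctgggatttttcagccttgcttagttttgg
Sgk1 had 6 such windows, and the 3′ tag counts do not tell which start a UMI came from. The estrogen response element GGTCANNNTGACC, searched in the same way, was in 0.0639% of all windows and in none of the 17 windows of the followed genes. A match describes letters and not binding.

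Sgk1 in MOL-like cells differed strongly between barcode numbers, with 1634, 1652, 704 and 599 CPM in numbers 1 to 4. Numbers 1 and 2 were close to each other and above numbers 3 and 4. The highest was 2.73-fold above the lowest with 10 CPM added, and 14 of 3063 genes with at least 200 UMIs in MOL-like cells reached 2-fold (0.457%), with Sgk1 in sixth place. The shift was seen over the whole distribution of single cells, as the median cell had 1624, 1682, 524 and 480 CPM of Sgk1, and a UMI was found in 99.4%, 96.9%, 87.1% and 87.0% of 172, 128, 178 and 177 cells. The median depth of these cells was between 5965 and 6156 UMIs. In each of the 3 MOL-like clusters the same pair of numbers was higher, with 1877, 1865, 795 and 744 CPM in the Ptgds-led cluster, 1212, 1121, 243 and 419 CPM in the Klk6-led cluster and 416, 885, 233 and 148 CPM in the Mag-led cluster. In diffOPC-like cells Sgk1 was at 739, 742, 653 and 863 CPM, with number 4 highest and no such split. OPC-like cells had 239, 231, 178 and 130 CPM, with numbers 1 and 2 again above numbers 3 and 4. Their spread was 1.78-fold with 10 CPM added, which 24 of 1191 genes with at least 200 UMIs there reached.

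**Figure D3:**
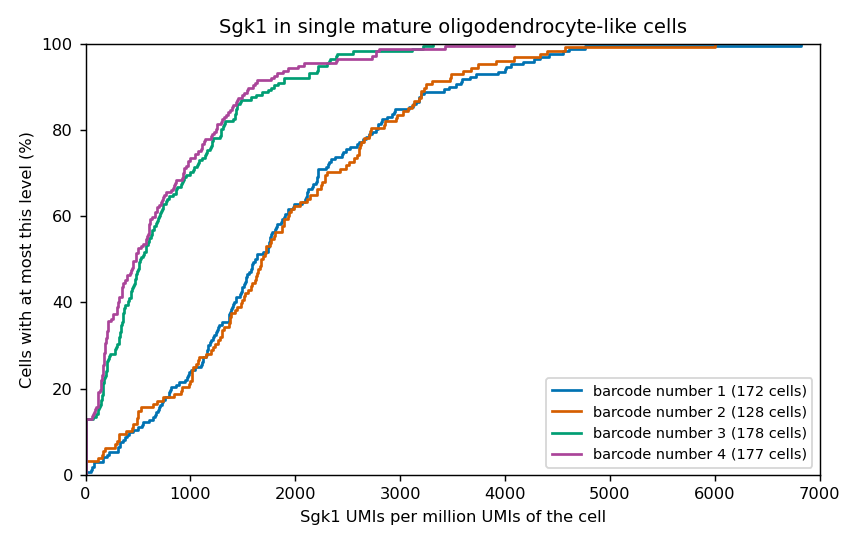
Cumulative share (%) of MOL-like cells with at most a given Sgk1 level (CPM within the cell), 1 line for each barcode number. The lines of numbers 1 and 2 lie together to the right, with medians of 1624 and 1682, and those of numbers 3 and 4 to the left, with medians of 524 and 480.

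Of the 4 followed genes with at least 200 UMIs in MOL-like cells, 2 passed 2-fold between barcode numbers. The second was Cdkn1a, at 111, 136, 70.2 and 46.99 CPM, again with numbers 1 and 2 above numbers 3 and 4. Tsc22d3 (163, 178, 152 and 135 CPM) and Nr3c1 (130, 145, 127 and 117 CPM) were less spread, by 1.30-fold and 1.22-fold. Among the other response genes, 9 had enough UMIs and 2 passed 2-fold, namely Ddit4, an mTORC1 inhibitor gene (321, 326, 104 and 157 CPM), and Nfkbia, an NF-κB inhibitor gene (150, 157, 76.2 and 68.1 CPM). Heat shock genes went the other way, with Hspa1a at 11.1, 12.7, 255 and 244 CPM and Dnajb1 at 52.2, 49.7, 211 and 207 CPM. All 7 listed chaperone genes were higher in numbers 3 and 4, such as Hspa8 at 1481, 1426, 2097 and 2218 CPM. Of these 7, only 1 (Dnajb1) passed 2-fold, against 0.457% of all genes compared. The summed level of the dissociation list, which includes Hspa1a, was 180, 187, 504 and 468 CPM in MOL-like cells. For mature oligodendrocytes the authors report Sgk1 and Cdkn1a as downregulated after refeeding, and Hspa1a, Hsp90aa1, Hsp90ab1 and Hspa8 among the upregulated genes. No source ties the barcode numbers to these conditions. The part of heat shock or dissociation genes in the Sgk1 and Cdkn1a values was not tested, and library and condition cannot be told apart from these numbers.

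Within cells of 1 type and 1 barcode number, correlations between the followed genes were weak. For 9 gene pairs, each taken in MOL-like, VLMC-like, microglia-like or astrocyte-like cells thinned to 2000 UMIs, the 36 Spearman coefficients ran from -0.24 to 0.19. Sgk1 with Cdkn1a in MOL-like cells gave 0.04, 0.07, -0.02 and 0.12 over the barcode numbers. The counts per cell are low, and the coefficients are given as a description only.

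Microglia-like cells showed a related spread. Sgk1 was at 449, 547, 261 and 379 CPM and Tsc22d3 at 286, 372, 197 and 176 CPM over the barcode numbers, and both passed 2-fold with 10 CPM added, against 3.31% of 967 genes. The summed level of the dissociation list in these cells was 3673, 4345, 1560 and 2278 CPM. A small cluster of 52 cells led by Ccl4, Junb and Ccl3 had 935 CPM of Sgk1 (802 to 1083) and 777 CPM of Tsc22d3 (656 to 913), whereas the main cluster of 353 cells had 362 and 202 CPM. The small cluster held 19, 25, 3 and 5 cells of barcode numbers 1 to 4, so that its share of the microglia-like cells differed between numbers. The summed dissociation genes were at 18502 CPM in the small cluster and 881 CPM in the main cluster. Junb, Ier2, Jun and Fos of that list are among the leading genes of the small cluster, so this difference is part of what sets it apart. The part of the dissociation genes in the Sgk1 and Tsc22d3 levels was not tested. Within the main cluster Sgk1 was at 385, 412, 238 and 348 CPM and Tsc22d3 at 206, 238, 187 and 151 CPM, and neither reached 2-fold. Fkbp5, at 89.8 and 75.8 CPM, had overlapping intervals in the 2 clusters.

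Cdkn1a encodes the cell cycle inhibitor p21, a target of p53 that glucocorticoids can also raise. It was highest in the 84 endothelial-like cells, at 884 CPM (762 to 1019), with 941, 1019, 873 and 468 CPM over the barcode numbers. Number 4, with 12 cells, was lowest, yet it was above every value of the next type, ependymocyte-like cells at 161 CPM (145 to 179 CPM over barcode numbers). Mural-like cells had 140 CPM, VLMC-like cells 113 CPM, astrocyte-like cells 107 CPM and MOL-like cells 87.4 CPM, whereas diffOPC-like cells had 7.03 CPM. A UMI was found in 63 of the 84 endothelial-like cells and in 72.6% after thinning to 2000 UMIs, the highest share of any type. Besides MOL-like cells, only astrocyte-like cells had at least 200 Cdkn1a UMIs, and the gene passed 2-fold between barcode numbers there too, at 138, 121, 60.4 and 93.5 CPM, against 0.393% of 3055 genes. Within the oligodendrocyte lineage it was at 35.01, 7.03 and 87.4 CPM in OPC-like, diffOPC-like and MOL-like cells.

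Other targets of p53 were mixed in these cells. Of 10 such genes, 2 were at least 2-fold higher in endothelial-like cells, Plk2 at 223 CPM and Btg2 at 330 CPM, against 7.99% of all genes. Mdm2, which encodes the ubiquitin ligase for p53, was at 79.1 CPM there and 70.4 CPM in the other named cells, and Phlda3 was at 18.6 CPM against 114 CPM. The median log2 fold of the list was 0.29 in endothelial-like cells, where the median of all genes was -0.29. In MOL-like cells Mdm2 (132 CPM) and Phlda3 (338 CPM) were the 2 genes past 2-fold, and 5.12% of all genes were.

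**Figure D4:**
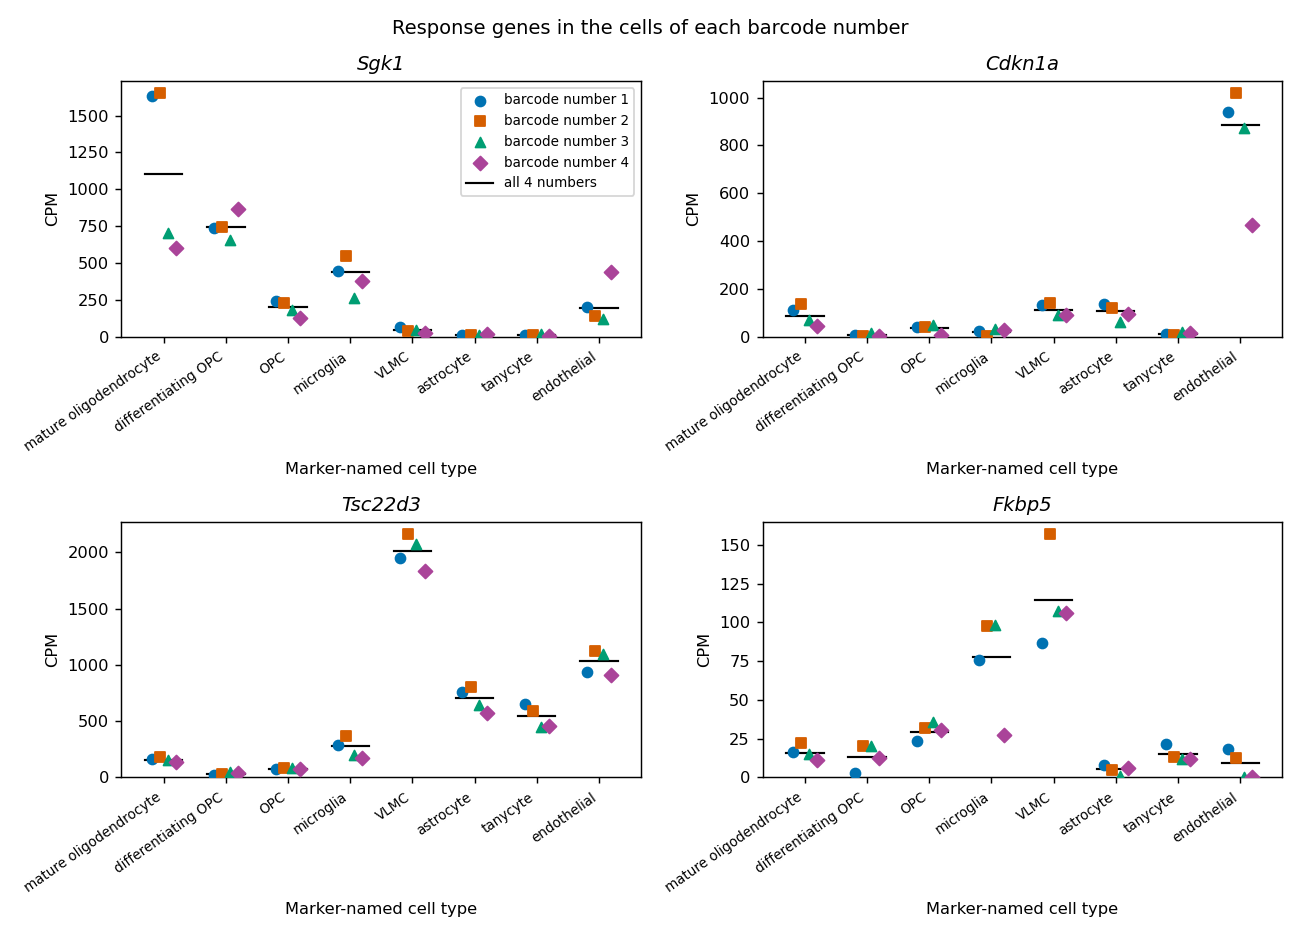
Level (CPM) of Sgk1, Cdkn1a, Tsc22d3 and Fkbp5 in 8 cell types, with 1 point for each of the 4 barcode numbers and a line for all numbers together. Sgk1 in MOL-like cells splits into 1634 and 1652 CPM against 704 and 599 CPM, while Tsc22d3 in VLMC-like cells stays between 1832 and 2164 CPM.

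A list of 22 further glucocorticoid response genes was described in the same way, of which 20 had at least 50 UMIs. Of these, 7 were at least 2-fold higher in astrocyte-like cells than in the other named cells and 4 were lower, against 5.35% and 13.1% of all genes. The higher genes were the metallothionein genes Mt1 and Mt2, the heparan sulfate proteoglycan gene Sdc4 (881 CPM), the glutamine synthetase gene Glul, the transcription factor gene Klf9, Angptl4 and Ddit4. In MOL-like cells 6 were higher, against 5.12% of all genes, among them Gpd1, which encodes glycerol-3-phosphate dehydrogenase (115 CPM against 7.64 CPM), Arrdc2 (66.5 CPM against 7.37 CPM) and Glul, and 5 were lower against 19.5% of all genes. In VLMC-like cells 5 were higher, against 6.13% of all genes, with Angptl4, a lipoprotein lipase inhibitor gene, at 311 CPM and the transcription factor gene Cebpb at 552 CPM. The pooled Angptl4 level hides a wide spread, with 526, 554, 75.9 and 106 CPM in barcode numbers 1 to 4, while Cebpb was at 547, 520, 438 and 725 CPM. In endothelial-like cells 5 were higher, against 7.99% of all genes, with Nfkbia at 1223 CPM and Dusp1, a MAP kinase phosphatase gene, at 488 CPM. The types thus had high levels of different genes of the list, and Glul and several others are also markers of glia or respond to other signals.

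Neuron-like cells stood at the low end of this list. There 1 gene of 20, Irs2, was at least 2-fold higher and 10 were lower, against 9.74% and 12.4% of all genes, and the median log2 fold was -1.11 where that of all genes was -0.05. Mt1, Mt2, Sdc4 and Glul were lower by over 3 log2 units. In diffOPC-like cells the median was -0.66, against -0.18 for all genes. Klf9 was low in microglia-like cells (9.54 CPM) and macrophage-like cells (25.9 CPM), where Fkbp5 was at 77.8 and 65.9 CPM.

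**Figure D5:**
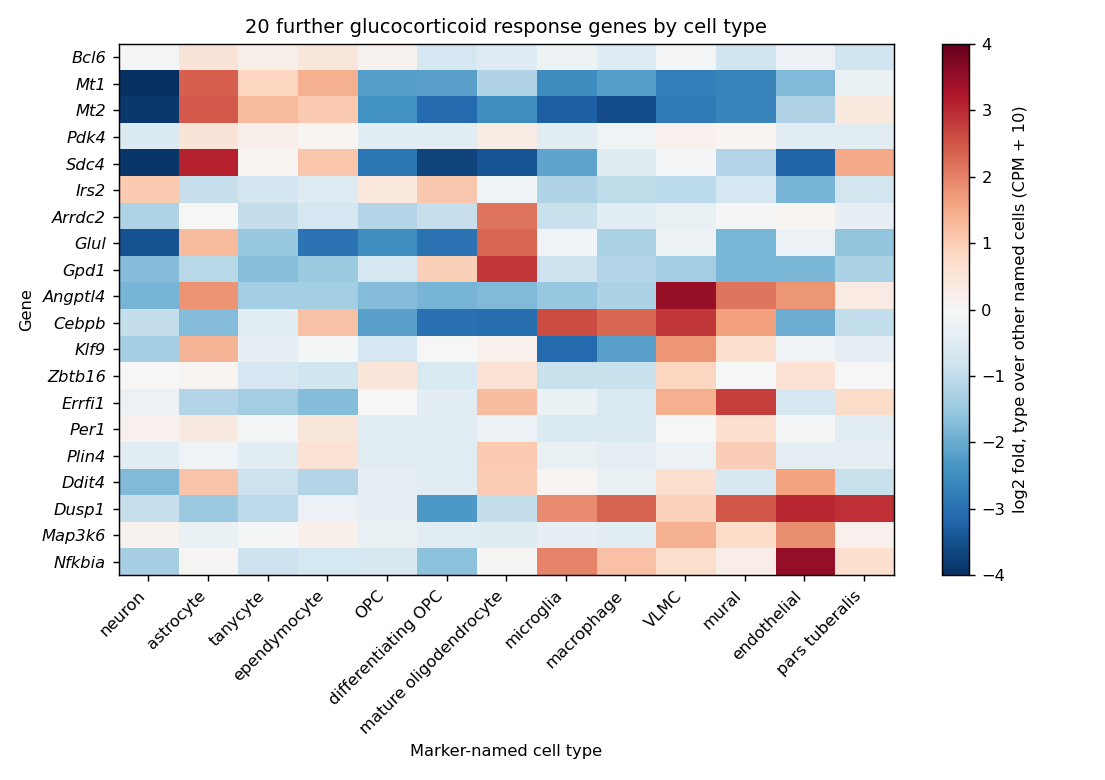
Log2 fold between each cell type and the other named cells, on CPM with 10 added, for the 20 further response genes with at least 50 UMIs. Astrocyte-like cells have 7 genes at least 2-fold higher and neuron-like cells have 10 that are at least 2-fold lower.

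The proteins that hold and assist the receptors were also unevenly expressed. Of 7 chaperone genes, 4 were at least 2-fold lower in astrocyte-like cells, against 13.1% of all genes, with Hsp90aa1, an HSP90 gene, at 229 CPM, and none was higher. In ependymocyte-like cells, the type with the lowest Nr3c1 level, 2 were higher, with Hsp90aa1 at 2492 CPM, against 9.09% of all genes. Fkbp4, whose product replaces that of Fkbp5 on the receptor, was highest in neuron-like cells at 281 CPM. Among 7 coregulator genes, Nrip1, a corepressor, was at 219 CPM in microglia-like cells against 39.2 CPM elsewhere, and Ncoa3, a coactivator, at 119 CPM in VLMC-like cells. The 2 genes of this list past 2-fold in microglia-like cells compare with 7.53% of all genes there.

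Genes with the most similar distribution over the 13 types were taken by Pearson's r of log2 levels among 11615 genes with at least 50 UMIs and at least 20 CPM in a type. Hsd11b1 was nearest to Entpd2 (0.96), Gjb2 (0.95) and Ranbp3l (0.93), each of which was highest in astrocyte-like or VLMC-like cells. Tsc22d3 was nearest to Bag3 (0.90), Sgk1 to Rac1 (0.90), Cdkn1a to Slc9a3r2 (0.88) and Fkbp5 to Olfml3 (0.88). By Spearman's rho the nearest genes of these 4 were others, namely Lta4h, Chn2, St6gal1 and Tmem119. For Nr3c1, the most evenly spread of these genes, the closest was Faap100 at 0.76. Esr1 and Pgr gave 0.81 with each other.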

How the data were processed

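The deposited matrix holds raw UMI counts, not normalized, which the authors obtained by running Cell Ranger 2.0 against GRCm38 (mm10). The gene annotation and cell calling rule are not given in the sources used here. The 32 sample records are sequencing parts of the 4 libraries. Gene identifiers were matched to symbols in GENCODE vM21 for 27722 of 27998 genes. Columns of other per-sample values numbered 0.

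No cell was removed for depth, but 3 cells were put aside because haemoglobin genes made up at least 10% of their UMIs. Counts were log-normalized, and 2000 variable genes (4 of the 9 genes among them), 30 principal components, 15 neighbours and Leiden resolution 1 were used (igraph 0.11.9, scikit-learn 1.9.0, scanpy 1.11.5). Names were given to clusters from 1 of 13 marker lists with a mean relative level of at least 0.3, at least 2 times the next list, and at least 3 markers 4-fold above the median cluster. These limits were set after seeing the data, and 4 clusters (564 cells) stayed unnamed. Scrublet called 50 doublets (0.836%), which were kept except in 1 alternative. Shares at equal depth leave out 304 cells under 2000 UMIs. Where no UMI was seen, the limit given is that of 3 counts. Folds use a pseudocount of 10 CPM, and genes need 50 UMIs over all cells. The members, gene lists and comparisons were chosen with earlier results of these data known. The text names the 9 genes, genes of the lists and the nearest genes by correlation, and leading genes of clusters were named after their values were seen. Cebpd and Kiss1 were not analysed here, as no gene of the matrix was matched to these symbols. Promoter windows are RefSeq GRCm38.p6, and 8 of the 9 genes had a window that was searched. In tests on simulated data, 100% of 5415 simulated cells returned to their type, and of 200 genes changed 4-fold among 13802 genes in a simulated MOL comparison, 99.5% were found past 2-fold. Simulated cells of a type were all drawn from its summed profile, and the MOL comparison from 1 profile with counting error only. High returns were thus built in, and these tests check the steps and not the naming of real cells. Alternatives were other clusterings, doublets or shallow cells left out, each barcode number left out, equal depth, equal weight of cells, other pseudocounts and limits, and 2 unnamed clusters (led by Gfap and Dio3) counted as tanycyte-like, which was chosen after seeing the data.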

Additional observations from a re-analysis of the deposited data

How the results depend on the processing

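No paired analysis was possible because cells are not tied to the labelled replicates. The main values recomputed were the level of each of the 9 genes in its highest type and the number of genes with an unchanged highest type. The response genes counted as higher in VLMC-like, astrocyte-like and MOL-like cells were recomputed with them. A level or share was taken as unmoved within the exact interval of its reported value, which covers counting error only. A count was taken as unmoved when it changed by under 1.5 times. These main values stayed within the limits in 123 cases and moved past them in 10, none with a change of direction. All 10 were levels of Sgk1, Tsc22d3 or Pgr. Among the other values recomputed, 1420 stayed within these limits and 100 did not. Sgk1 in MOL-like cells was at 1068 CPM with K-means, 1238 CPM as a mean of single cells and 1231 CPM at 2000 UMIs per cell, and from 914 to 1297 CPM with each barcode number left out. Tsc22d3 in VLMC-like cells was at 2212 CPM as a mean of single cells and 2132 CPM at 2000 UMIs, and Pgr in neuron-like cells at 16.4 CPM at 2000 UMIs. The cause was not tested. The highest type stayed the same for all 9 genes under most alternatives, but Nr3c2 was highest in ependymocyte-like cells at 2000 UMIs (15.1 CPM) and without barcode number 2 (12.3 CPM). K-means with 9 clusters named only 5 types, and could not give Esr1, Pgr or Nr3c1 in neuron-like or OPC-like cells. With a pseudocount of 1 CPM, the response genes counted as lower went from 7 to 11 in OPC-like, 8 to 14 in diffOPC-like, 5 to 8 in MOL-like, 6 to 12 in microglia-like, 7 to 11 in macrophage-like, 2 to 7 in pars tuberalis-like and 5 to 9 in tanycyte-like cells, and those higher in diffOPC-like cells from 1 to 2. Depth limits Nr3c2, Esr1 and Pgr most, as they rest on 155, 237 and 180 UMIs.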
